A study of Rattus norvegicus with 2 samples.

Results

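Red blood cell genes were described here in RNA labelled as left ventricle of rats, for 8 genes out of the 15037 named genes measured. The 8 genes were Hba-a3, Alas2, Slc4a1, Epb42, Ahsp, Klf1, Rhag and Hemgn, and each was taken from the array as the 1 probe set that the platform annotation names for it. They were selected on the intensities and log2 differences of these same arrays, so their values are given as a description and carry no test. One array, the cocaine sample, came from a rat injected daily with cocaine (20 mg/kg, tail vein) over 14 days, and the other, the control sample, from a control rat. Both were male rats of the strain given as SD (Sprague Dawley), 8 weeks old when the study began, and the left ventricles were taken 24 h after the last injection. The methods describe the control rats as injected with saline in the same way, while the sample label gives the control as unstimulated. Each condition had 1 Clariom S array, a microarray on which short probes read each transcript, so no value below has an SD or a p-value and every difference describes these 2 arrays.

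Red blood cells carry oxygen on haemoglobin, a protein of paired alpha and beta globin chains that each hold a heme group. Mammalian red cells lose their nucleus before they enter the blood, and the RNA that circulates with them is what the youngest cells, the reticulocytes, keep for a short time. A reticulocyte is therefore rich in RNA for globins, for heme synthesis and for the membrane skeleton, whereas the nuclear regulators that switch these genes on, such as Gata1 and Klf1, act earlier, in the bone marrow. In a piece of tissue, fewer cells of a type and less RNA per cell cannot be told apart.

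Intensities are normalized and on a linear scale. A log2 difference is the log2 intensity in the cocaine sample minus that in the control sample. A background limit was set on each array at the 95th percentile of 1155 probe sets of olfactory and vomeronasal receptor genes, and was 64.1 in the cocaine sample and 71.5 in the control sample. Of the 15037 genes, 9763 lay above the limit in both samples, 542 on 1 array and 4732 on neither. Probe sets bind with different strength, so intensities were compared between the arrays and not between genes. Markers of lung epithelium lay above the limit in both samples in 17 of 17 measured cases, with summed intensities of 3585841 in the cocaine sample and 3559988 in the control sample. Of 20 measured cardiomyocyte markers, 14 were above it in the cocaine sample and 10 in the control sample. Sftpc, a surfactant protein of lung alveolar cells, stood at 999971 in both samples, a signal that the label of left ventricle does not account for. Myl2, the ventricular myosin light chain, stood well above the limit, at 6344 in the cocaine sample and 7778 in the control sample, and Myh7, the slow cardiac myosin, under it, at 31.9 in the cocaine sample and 29.0 in the control sample. Myh6, the main myosin of the adult rat ventricle, had no named probe set here.

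Most of the red blood cell genes were higher in the cocaine sample, and the clearest differences were those of a globin gene and of the red cell enzyme of heme synthesis. In all, 7 of the 8 genes were higher in the cocaine sample, where 52.4% of all named genes were higher. The median log2 difference of the 8 genes was 0.56, and that of all named genes was 0.02. Only 3 of them, Hba-a3, Alas2 and Hemgn, lay above the background limit in both samples, and these 3 had a median of 0.63. Slc4a1 and Ahsp lay above it in the cocaine sample alone. Epb42, Rhag and Klf1 lay under it in both samples, so for these 3 genes the label of red blood cell genes rests on their known role and not on a signal over background.

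**Figure D1:**
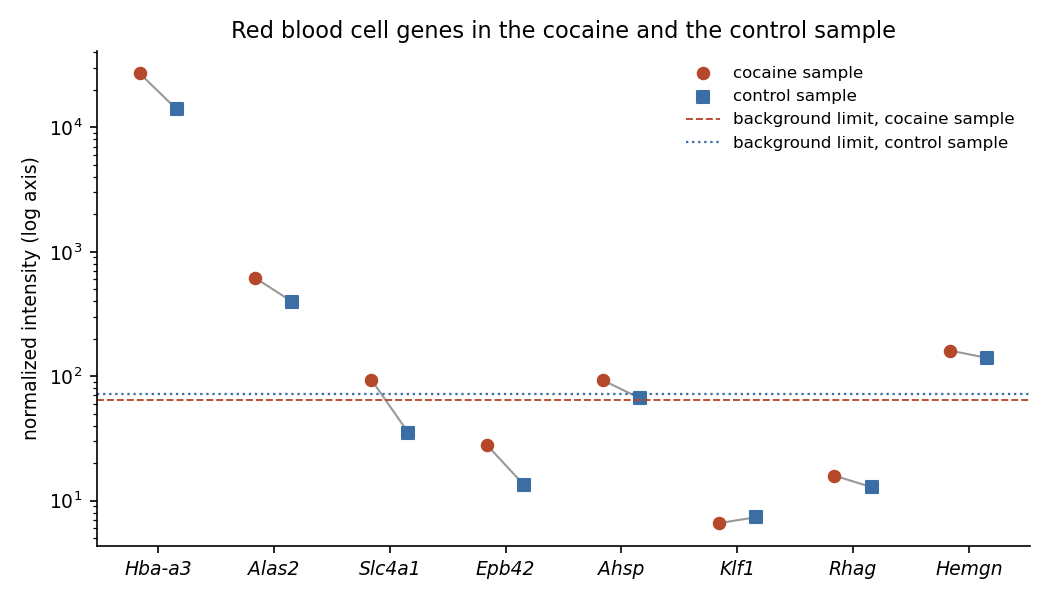
Normalized intensity (log axis) of each of the 8 red blood cell genes in the cocaine sample (circles) and the control array (squares), 1 array each, with the background limits of 64.1 and 71.5 as dashed and dotted lines. Hba-a3, Alas2 and Hemgn lie above the lines in both samples, and Klf1 is the 1 gene that is lower in the cocaine sample.

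Hba-a3, an alpha globin gene of the adult cluster, had an intensity of 27223 in the cocaine sample and 13971 in the control sample. The ratio was 1.95-fold and the log2 difference 0.96, which ranked 120 of 15037 genes by rise. The adult globin genes of the array that are not among the 8 were higher in the cocaine sample too, but by less. Hba-a1, another alpha globin gene, stood at 248942 in the cocaine sample and 214102 in the control sample, a log2 difference of 0.22. Hbb, the adult beta globin gene, stood at 203730 in the cocaine sample and 146176 in the control sample, a log2 difference of 0.48. Hbb encodes the partner chain of the alpha globins in adult haemoglobin. Hbb-b1 had 36982 in the cocaine sample and 29572 in the control sample, a log2 difference of 0.32, and Hbb-bs had 2259 in the cocaine sample and 1575 in the control sample, a log2 difference of 0.52. The 3 beta globin genes thus lay between the 2 alpha globin genes in the size of the difference. All 5 adult globin genes measured were higher in the cocaine sample, by 0.22 to 0.96, with summed intensities of 519136 in the cocaine sample and 405396 in the control sample, a ratio of 1.28. Within the alpha and within the beta family, the adult globin genes are close copies of each other. Their probe sets can therefore share transcripts within a family and are not 5 separate measurements.

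The globin genes that work in the embryo showed no such pattern. Hbe1, Hbe2 and Hbg1, of the beta cluster, and Hbz, of the alpha cluster, all lay under the background limit in both samples. Hbe2 stood at 53.3 in the cocaine sample and 68.1 in the control sample, and Hbz at 18.9 in the cocaine sample and 18.6 in the control sample. Of these 4 genes 1 was higher in the cocaine sample, and their median log2 difference was -0.25. Mb, the myoglobin of muscle, which is a globin of muscle cells and not of red cells, stood at 398.3 in the cocaine sample and 73.9 in the control sample.

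**Figure D2:**
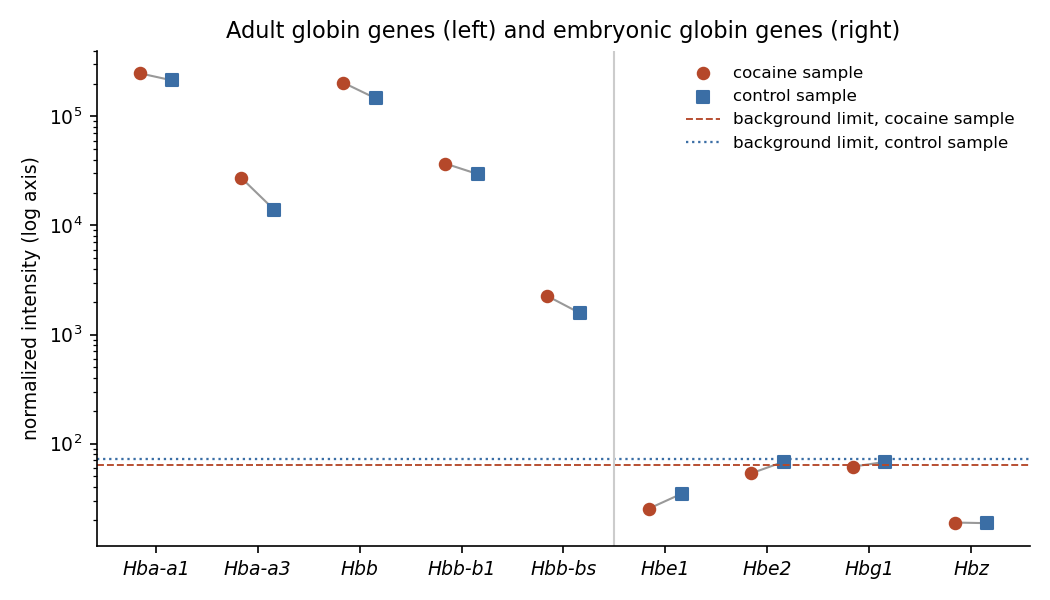
Normalized intensity (log axis) of 5 adult and 4 embryonic globin genes in the cocaine sample (circles) and the control array (squares), with the background limits of 64.1 and 71.5. The adult genes lie far above the limits with the cocaine array higher, Hba-a3 with the widest gap, and the embryonic genes lie under the limits.

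The 250 bases before the start of Hba-a3 and of Hba-a1 are shown because these alpha globin genes of the cluster on chromosome 10 differed most in their log2 difference among the adult globins. They come from RefSeq, on build GRCr8, for Hba-a3 at chr10:15816944-15817193, minus strand, and for Hba-a1 at chr10:15842581-15842830, minus strand. Capitals mark the GATA motif, which GATA factors bind, and the CACC motif (CCNCNCCC), the core that Klf1 and its relatives bind. The GATA motif was searched as TGATAA, and equally with the first base exchanged, as AGATAA. Forms that end in another base were not searched. Each motif was searched on both strands.
Hba-a3: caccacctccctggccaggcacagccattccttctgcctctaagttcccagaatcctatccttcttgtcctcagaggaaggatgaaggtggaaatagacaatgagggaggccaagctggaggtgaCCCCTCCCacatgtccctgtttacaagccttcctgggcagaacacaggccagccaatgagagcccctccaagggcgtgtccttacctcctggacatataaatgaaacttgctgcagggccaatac
Hba-a1: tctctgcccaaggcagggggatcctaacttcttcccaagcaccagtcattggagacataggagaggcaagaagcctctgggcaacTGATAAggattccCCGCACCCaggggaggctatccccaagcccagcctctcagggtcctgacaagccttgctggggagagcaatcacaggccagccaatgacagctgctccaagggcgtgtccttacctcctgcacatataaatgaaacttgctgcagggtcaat
The window of Hba-a1 held 1 GATA match, which overlaps an E-box match (CAGNTG), and 1 CACC match, whereas that of Hba-a3 held 1 CACC match and none of the GATA motif. Both held 1 match of the TATA box, searched as TATAAA, at 30 to 25 bases before the start in Hba-a3 and at 28 to 23 in Hba-a1. In a global alignment of both windows, 65.0% of 266 columns had the same base. The window of Hba-a2, a further gene of the cluster that had no named probe set here, had 96.4% identity with that of Hba-a1 over 250 columns.

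Alas2 encodes the aminolevulinate synthase of red cell precursors, which starts heme synthesis in these cells. Its intensity was 613.9 in the cocaine sample and 395.9 in the control sample, a 1.55-fold difference. The log2 difference of 0.63 ranked 541 of 15037 genes by rise. Alas1, the form of this enzyme that all tissues use, stood at 7180 in the cocaine sample and 6468 in the control sample, with a log2 difference of 0.15. Among the later enzymes of the pathway, Fech, which puts iron into the heme ring, stood at 837.9 in the cocaine sample and 563.0 in the control sample, a 1.49-fold difference. Urod, an enzyme of the middle of the pathway, stood at 855.0 in the cocaine sample and 670.7 in the control sample, a 1.27-fold difference. Uros, which acts just before Urod, was lower in the cocaine sample, at 83.7 against 104.5. Of the 13 measured genes of heme synthesis and its transporters other than Alas2, 10 were higher and 3 lower in the cocaine sample, with a median log2 difference of 0.15. No gene of this list differed by 2-fold, and all of them lay above the background limit in both samples.
The window before the start of Alas2 is shown for its single GATA match, at 136 to 131 bases before the start (RefSeq, GRCr8, chrX:22895200-22895449, plus strand).
Alas2: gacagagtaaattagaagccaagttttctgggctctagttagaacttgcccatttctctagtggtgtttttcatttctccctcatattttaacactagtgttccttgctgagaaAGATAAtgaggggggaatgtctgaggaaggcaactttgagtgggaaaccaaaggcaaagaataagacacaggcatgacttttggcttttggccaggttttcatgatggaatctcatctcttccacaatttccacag

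Ahsp encodes the alpha haemoglobin stabilizing protein, a chaperone that binds free alpha globin chains. It stood at 92.7 in the cocaine sample and 66.6 in the control sample, and the control value lay just under the background limit. When the higher of both limits was used as a floor, the ratio of 1.39 became at least 1.30-fold. The enzymes and maturation genes of red cells listed beside it did not share a direction. Of 20 measured genes of this list without Ahsp, 9 were higher and 11 lower in the cocaine sample, with a median log2 difference of -0.03. Car2, a carbonic anhydrase of red cells and many other cells, stood at 8841 in the cocaine sample and 12387 in the control sample, a log2 difference of -0.49. Car1, the other carbonic anhydrase of red cells, stood at 47.7 in the cocaine sample, under the limit, and 76.3 in the control sample. With the same floor, its ratio of cocaine to control was at most 0.94. Fbxo7, a subunit of a ubiquitin ligase, had a log2 difference of -0.66, at 825.9 in the cocaine sample and 1305 in the control sample. Prdx2, a peroxiredoxin abundant in red cells, had one of 0.40, at 3736 in the cocaine sample and 2840 in the control sample. The red cell enzyme genes Cat, Gpx1 and Sod1 of the same list had log2 differences of -0.16, -0.19 and -0.04. The genes of this list that were lower thus included both carbonic anhydrases and these enzymes, while the globin chaperone and the peroxiredoxin were higher.

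Slc4a1 and Epb42, of the red cell membrane, had the highest ratios among the 8, and neither was above the background limit in both samples. Slc4a1 encodes band 3, the anion exchanger that anchors the membrane skeleton, and stood at 93.9 in the cocaine sample and 35.2 in the control sample. Its ratio was 2.67-fold, rank 27 of 15037 by rise, but the control value lay under the background limit, and with the limit as a floor it was at least 1.31-fold higher. Epb42 encodes protein 4.2, which ties band 3 to the skeleton, and stood at 28.0 in the cocaine sample and 13.3 in the control sample. The ratio of 2.10-fold came from 2 values under the limit, and no fold can be given with that floor. Rhag, the ammonia channel of the Rh complex, stood at 15.9 in the cocaine sample and 12.8 in the control sample, also under the limit on both. Slc4a1 and Epb42 were the 2 of 8 genes that reached a 2-fold difference, which 0.698% of all named genes did. At a threshold of 1.5-fold, Hba-a3 and Alas2 joined them, which makes 4 of 8 where 4.63% of all named genes passed. Among the 542 genes above the limit on 1 array, to which Slc4a1 belongs, 5.35% were at least 2-fold higher, against 0.613% of those above it on neither, to which Epb42 belongs. Of the genes above it on both, 0.481% were at least 2-fold higher.
A higher intensity in the cocaine sample was found for 14 of 17 further measured membrane genes, whose median log2 difference was 0.16, with none at 2-fold. Sptb, the beta spectrin of the red cell skeleton, stood at 127.0 in the cocaine sample and 85.1 in the control sample, a 1.49-fold difference, and was above the limit on both. Slc2a1, a glucose transporter that many tissues use, had a log2 difference of 0.41. Over the 10 of these 17 genes that were above the limit in both samples, 7 were higher and the median was 0.04. The largest of the differences under the limit was that of Rhd, which carries the Rh antigen, at 36.7 in the cocaine sample and 23.2 in the control sample.

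Several regulators of the red cell program were at or near background, or were genes that other cells use as well. Hemgn and Nfe2, both of blood precursors, lay above the background limit in both samples. Klf1, the erythroid Kruppel-like factor that drives adult beta globin, was the 1 gene of the 8 that was lower in the cocaine sample, at 6.58 against 7.35 in the control sample. Either value was 0.103 times the background limit of its array. Hemgn, or hemogen, a nuclear protein of blood precursors, stood at 160.3 in the cocaine sample and 140.2 in the control sample, a log2 difference of 0.19. It was the 1 nuclear regulator among the 8 with a signal above the limit in both samples. Gata1, the main GATA factor of red cell precursors, stood at 12.2 in the cocaine sample and 9.07 in the control sample, under the limit on both. Tal1, which works with Gata1 and is also used by endothelium, stood at 779.9 in the cocaine sample and 651.1 in the control sample.
Of 15 measured regulators other than Klf1 and Hemgn, 8 were higher and 7 lower in the cocaine sample, with a median log2 difference of 0.11. Zfpm1, the GATA partner Fog1, had one of 0.54, at 585.8 in the cocaine sample and 403.7 in the control sample. Nfe2, a factor of red cell and platelet precursors, had one of 0.43, at 150.7 in the cocaine sample and 111.6 in the control sample. Ldb1, which bridges these factors, had one of -0.47, at 4745 in the cocaine sample and 6571 in the control sample. A list of 7 measured genes known from mouse and human as targets of Klf1 had 5 higher and 2 lower, with Hbb, Hbb-b1 and Aqp1 among the 5. Of all named genes, 52.4% were higher. This list holds none of the 8 genes, and Hbb and Hbb-b1 are close copies and not separate measurements. Aqp1, a water channel of red cells and capillaries, stood at 14825 in the cocaine sample and 11664 in the control sample.

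The windows before the starts of Klf1, Rhag and Hemgn are shown because each holds a GATA match (capitals). They are from RefSeq, on GRCr8, for Klf1 at chr19:40158652-40158901, minus strand, for Rhag at chr9:27594391-27594640, minus strand, and for the second of the 2 starts of Hemgn in the table at chr5:65485822-65486071, minus strand.
Klf1: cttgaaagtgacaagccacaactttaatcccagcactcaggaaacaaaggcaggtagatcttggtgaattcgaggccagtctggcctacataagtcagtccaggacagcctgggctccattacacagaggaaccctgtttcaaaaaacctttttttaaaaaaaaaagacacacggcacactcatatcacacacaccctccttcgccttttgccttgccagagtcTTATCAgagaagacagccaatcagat
Rhag: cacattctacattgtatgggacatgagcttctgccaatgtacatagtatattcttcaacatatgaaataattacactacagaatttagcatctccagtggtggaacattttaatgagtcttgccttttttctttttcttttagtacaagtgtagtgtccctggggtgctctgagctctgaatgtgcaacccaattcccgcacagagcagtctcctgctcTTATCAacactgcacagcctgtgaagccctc
Hemgn: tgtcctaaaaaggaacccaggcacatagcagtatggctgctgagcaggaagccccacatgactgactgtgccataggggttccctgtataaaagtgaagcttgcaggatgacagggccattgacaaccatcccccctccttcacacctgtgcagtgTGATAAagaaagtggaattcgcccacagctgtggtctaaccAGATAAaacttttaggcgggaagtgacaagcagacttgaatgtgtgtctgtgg
The match lay 26 to 21 bases before the start in Klf1 and 31 to 26 in Rhag, on the minus strand in both. Hemgn had 2 matches, at 94 to 89 and at 53 to 48 bases before this start, and none before its other start, which held 1 CACC match. Of the 6 red blood cell genes with a promoter in the table, 4 held a GATA match within 250 bases. Of 33465 promoters of the same length, 16.9% did. Hemgn was counted when either of its 2 windows held a match, whereas each share is over single promoters. The CACC motif was held by Hba-a3 and Hemgn, 2 of 6, and by 42.8% of all promoters, and the CCAAT box by 3 of 6 and 34% of all. TATAAA was held by 2 of 6 and 12.9% of all, and CAGNTG by 2 of 6 and 43.3% of all. The TATAAA match of Hemgn lay at 164 to 159 bases before its second start, farther off than that of Hba-a3. Such matches describe the letters of the window and not binding. The window of Epb42, with no GATA and no CACC match, is not shown, and no window was matched for Slc4a1 and Ahsp.

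**Figure D3:**
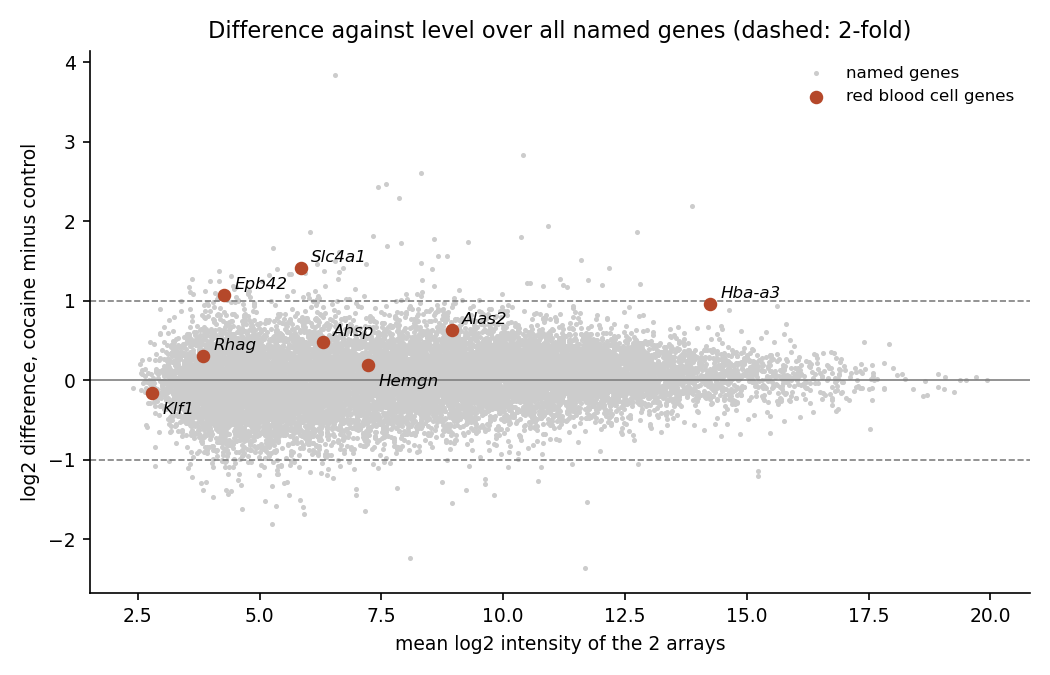
Log2 difference (cocaine minus control, vertical axis) against the mean log2 intensity of both arrays (horizontal axis) for 15037 named genes (grey) and the 8 red blood cell genes (red), with dashed lines at 2-fold. Slc4a1 and Epb42 lie above the upper line at low intensity, and Hba-a3 just under it at high intensity.

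Markers of other blood cells did not all move with the red blood cell genes. Of 14 measured neutrophil markers, 11 were higher in the cocaine sample, with a median log2 difference of 0.63, 7 above the background limit in the cocaine sample and 6 in the control sample, and summed intensities of 17033 in the cocaine sample and 5575 in the control sample. Lcn2 alone held 13039 of the sum in the cocaine sample and 3589 in the control sample. With values raised to the background limit, 7 of the 14 were higher and the median was 0.06, and the median of the cardiomyocyte markers was then 0.29. Lcn2, S100a8 and S100a9 had log2 differences of 1.86, 1.27 and 1.22. Camp, Ngp and Ltf, which encode proteins of neutrophil granules, lay under the limit in both samples. The 14 measured genes of the platelet and megakaryocyte list, in contrast, had a median of 0.09, with 8 higher and 6 lower. Summed intensities were 3920 in the cocaine sample and 4103 in the control sample. The list holds Sele, a selectin of endothelium and not of platelets. Sele lay under the limit in both samples, with a log2 difference of 0.63. Pf4, a chemokine of platelet granules, stood at 741.7 in the cocaine sample and 778.1 in the control sample, and Ppbp, another, at 160.7 in the cocaine sample and 119.0 in the control sample. Among genes of this list whose higher intensity was above the limit, Treml1 had the largest difference, -0.55. It stood at 54.5 in the cocaine sample, under the limit, and 79.9 in the control sample. Of 13 measured T and B lymphocyte genes 9 were lower and 4 higher. Their median was -0.18, with summed intensities of 5519 in the cocaine sample and 6008 in the control sample. The measured B cell genes Cd79b, Pax5, Cd22 and Blk had log2 differences of -0.73, -0.62, -0.41 and -0.38. The T cell genes went both ways, such as Cd5 at 0.34 and Cd3e at -0.23. The median of the 20 measured cardiomyocyte markers was 0.66, with 15 higher, 9 above the limit in both samples, and summed intensities of 16300 in the cocaine sample and 12327 in the control sample, and Tnnt2, the cardiac troponin T, was 5.51-fold higher. The median of the 17 measured lung epithelium markers was 0.04, with 10 higher and 6 lower. The part of these cell types in the values of the red blood cell genes was not tested.

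Genes that take up and recycle heme and iron after red cells break down differed in both directions. Of 18 measured genes of this list, 11 were higher and 6 lower in the cocaine sample, and the heavy chain of ferritin, Fth1, had the same value on both. Their median log2 difference was 0.09 and none reached 2-fold. Summed intensities were 289697 in the cocaine sample and 309495 in the control sample. Slc40a1, the iron exporter ferroportin, stood at 657.5 in the cocaine sample and 433.8 in the control sample, a 1.52-fold difference. Hmox1, the heme oxygenase that opens the heme ring, stood at 502.5 in the cocaine sample and 386.3 in the control sample, and Blvra, which reduces the product of that reaction further, at 1897 in the cocaine sample and 1360 in the control sample. Hmox2, another heme oxygenase, was lower in the cocaine sample, at 4185 against 5090 in the control sample. Ftl1, the light chain of ferritin, was lower too, at 59360 against 82085. Ireb2, which binds RNA when iron is low, had a log2 difference of 0.62, close to that of Alas2. Hp, or haptoglobin, which binds free haemoglobin, stood at 287.4 in the cocaine sample and 273.5 in the control sample, and Cd163, its receptor on macrophages, at 81.1 in the cocaine sample and 92.8 in the control sample. The response to low oxygen had 19 measured genes, of which 10 were higher, and their median was 0.02.

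**Figure D4:**
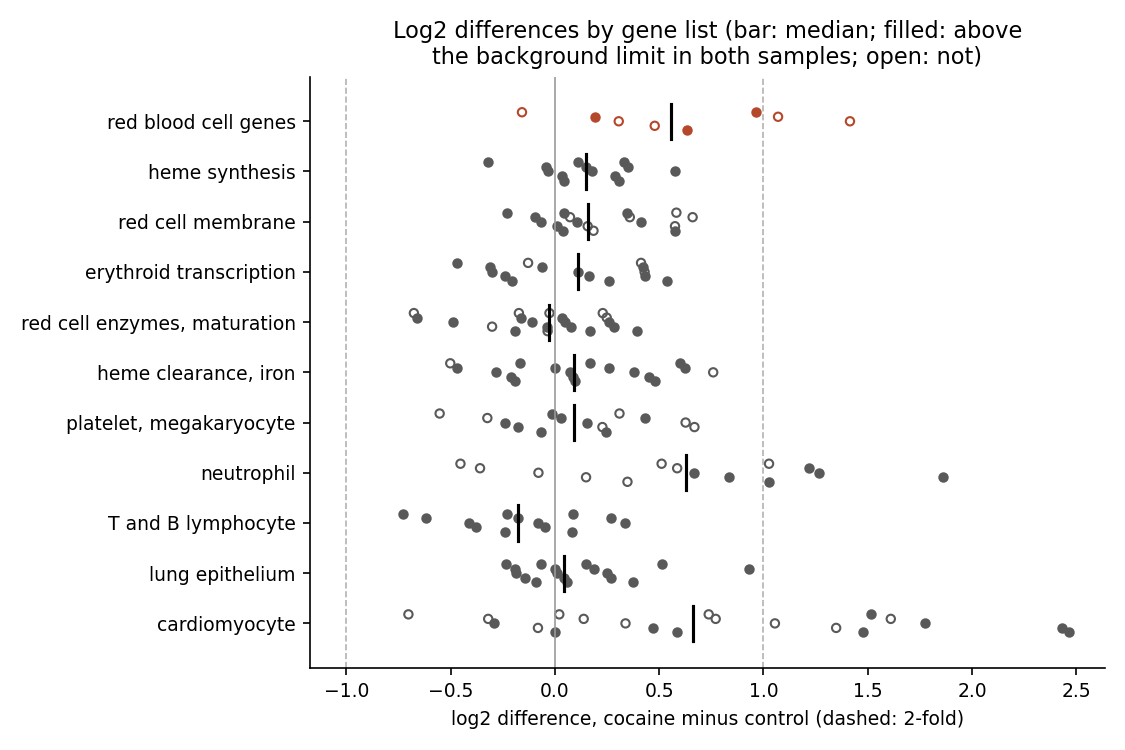
Log2 differences (cocaine minus control, horizontal axis) of the 8 red blood cell genes (red) and, without them, of the measured genes of 4 red cell lists (heme synthesis, membrane, transcription, enzymes and maturation), of heme clearance and iron, and of 5 other cell types (grey), with a bar at each median, filled points above the background limit in both samples and open points not. The medians are 0.56 for the red blood cell genes, 0.63 for neutrophil markers, 0.66 for cardiomyocyte markers and between -0.18 and 0.16 for the other lists drawn, and those of the lists not drawn are 0.22 for the other globins, 0.18 for Klf1 targets and 0.02 for the response to low oxygen.

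As a set, the other listed genes of red cells had a smaller median difference than the 8. Of 73 further measured genes of globins, heme synthesis, membrane, regulators, enzymes and maturation, 46 were higher and 27 lower in the cocaine sample, which is 63.0% higher, where 52.4% of all named genes were. Their median log2 difference was 0.08 and none reached 2-fold in either direction, where 0.698% of all named genes were higher by 2-fold or more and 0.599% lower by as much. Among the 52 of them above the background limit in both samples, 34 were higher, with a median of 0.09, and of all 9763 genes above it in both samples 57.5% were higher, with a median of 0.05. Many of the 73, such as Alas1 and Slc2a1, are genes that other tissues use as well, so their median is not a measure of red cell content. Single genes of the set differed by as much as some of the 8. Sptb had a log2 difference of 0.58, Rhd, under the limit in both samples, one of 0.66, and Fbxo7 one of -0.66. The 8 genes had been picked with their values known, so nothing is read from their higher median.

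**Figure D5:**
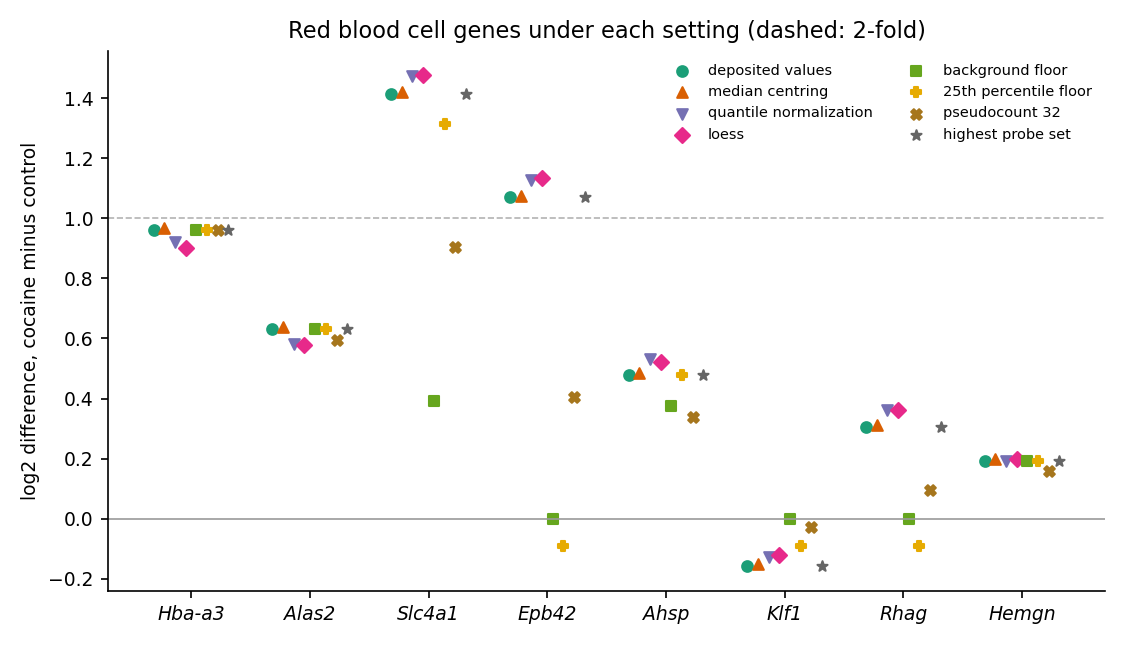
Log2 difference (cocaine minus control, vertical axis) of each of the 8 red blood cell genes at deposited values and under 7 alternative settings, 1 symbol each, with a dashed line at 2-fold. Hba-a3, Alas2 and Hemgn keep nearly the same value under every setting shown, whereas Slc4a1, Epb42 and Rhag are lower where low values are raised or a pseudocount is added.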

How the data were processed

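RNA from 1 rat of each condition, labelled as left ventricle, was measured on Clariom S arrays, 1 for each rat. The authors deposited a normalized intensity for each probe set, in linear units. MAS5 is named in the submitters' processing notes and the Transcriptome Analysis Console in the methods, and their versions, build and annotation are not given in the labels or the methods. Columns are named by sample, and the linear scale was read from the values. Of 24834 probe sets, 15049 carried a single gene symbol in the platform annotation, 8139 transcript probe sets were unnamed there and 1646 were controls. Log2 intensities, with no pseudocount, were averaged where a gene had more than 1 probe set (10 genes). No test was made, since each condition had 1 array, and precision is limited by that number.

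The red blood cell genes, the 13 other gene lists and the rule for named genes were chosen with earlier results of these data known. That rule took all 8 genes, every measured globin, up to 3 genes of each list with the largest absolute difference whose higher intensity was above the background limit, 9 lineage genes, and the nearest gene to each of the 8 in intensity, which is not given because levels of different probe sets are not comparable. Of the genes that the rule took, Cygb, Ngb, Alox12, Scgb1a1, Scgb3a1, Aqp5, Sftpd and Tnni3 were also left without values above. Genes outside the rule were named after their values were seen. Of 253 list entries, 214 matched a named gene. Alternatives were quantile normalization, median centring, a loess of the difference on the level (span 0.3), a floor at the background limit or at the 25th percentile, a pseudocount of 32, the highest probe set of a gene, a 1.5-fold threshold, filters on low values, and promoter windows of 100 bases. The steps were tested on simulated data. Python 3.11.15 with numpy 2.4.6, pandas 2.3.3, statsmodels 0.14.6, Biopython 1.88 and matplotlib 3.10.9 was used.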

Additional observations from a re-analysis of the deposited data

How the results depend on the processing

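No paired analysis was possible because each condition had 1 array, and for the same reason no array could be left out. A log2 difference or median was taken to have moved when it shifted by more than 0.33 on the log2 scale. That is the spread of the log2 difference over all named genes, since no spread between animals was measured. A count was taken to have moved when it changed by more than 1.5-fold, or to or from 0. The median log2 difference of the red blood cell genes was 0.56 and lay between 0.28 and 0.56 over the 7 alternatives that kept all 8 genes, and 5 or 7 of the 8 were higher in each. It was 0.63 over the 3 genes above the background limit in both samples. The count of genes at least 2-fold higher, 2 of 8, became 0 with values raised to the background limit (0.352% of all named genes), 1 with values raised to the 25th percentile (0.485%) and 0 with a pseudocount of 32 (0.279%). Both floors left 5 of 8 genes higher, where 38.8% of all named genes were with the first and 42.9% with the second. Among genes at or above the array median only Hba-a3 and Alas2 were left, so the count of 0 was out of 2 (0.551% of all such genes). It was 4 at a threshold of 1.5-fold, which 4.63% of all named genes passed. With the floor at the 25th percentile the log2 difference of Epb42 was -0.090, because both of its values lay under the floor, which differs between the arrays. Hba-a3 kept a log2 difference between 0.90 and 0.97, Alas2 between 0.58 and 0.64 and Hemgn between 0.16 and 0.20, whereas Slc4a1 ranged from 0.39 to 1.48. Among the wider lists, the floor at the background limit brought the median of the neutrophil markers to 0.06. That of the cardiomyocyte markers became 0.29. The red cell membrane list, with its genes among the 8 included, went from 17 to 8 of 20 higher, and the platelet list from 8 to 4 of 14. Of the 73 further red cell genes, 36 instead of 46 were higher. Their median was then 0, as was that of all named genes. With windows of 100 bases, 3 of 6 genes held a GATA match, as did 6.31% of all promoters. A CACC match was then held by 0 of 6 and by 27.6% of all promoters. TATAAA was held by 1 of 6, Hba-a3, and by 5.78% of all promoters.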

Other observations

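Genes of the response to low oxygen, a stimulus for red cell production, had no common direction. Of 19 measured genes, 10 were higher and 9 lower in the cocaine sample, with a median log2 difference of 0.02. Adm, or adrenomedullin, a peptide that widens vessels, stood at 82.9 in the cocaine sample and 180.5 in the control sample, a log2 difference of -1.12. Higd1a, a mitochondrial protein, had one of 0.69, with its control value under the background limit, and Egln2, an oxygen sensor, one of -0.49. Epo, the hormone that drives red cell production and is made mainly in the kidney, lay under the limit in both samples, at 8.52 in the cocaine sample and 9.15 in the control sample, as did its receptor gene Epor, at 22.3 in the cocaine sample and 22.8 in the control sample.

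The 63 probe sets named for the ERCC spike-in set had log2 differences between -0.46 and 0.39, with a median of -0.03 and 26 of them higher in the cocaine sample. No source used here says whether these RNAs were added. Of the 15037 named genes, 37 had exactly the same value in both samples.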
